A study of Mus musculus with 8 samples.

Results

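Smooth muscle contractile genes and the SRF/MRTF pair of transcription regulators were followed across 3 fibroblast lines named Ind-8, Con-3 and tI-3. The set holds 10 of the 15653 mouse genes that could be named on the arrays: Actg2, Acta2, Tagln, Cnn1, Myh11, Myl9, Tpm1, Tpm2, Srf and Mrtfa, the last known formerly as Mkl1. They were chosen by name with earlier results of these same arrays known, the differences between the 3 lines, so their values across the lines are a description and carry no test. All 10 were found, in 11 rows of the value table, and the 2 rows of Mrtfa have identical values and count once.

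The experiment asked which genes follow the self-renewal pattern of the cells. There were 8 Affymetrix mouse 430 2.0 arrays, 3 of Ind-8, 3 of Con-3 and 2 of tI-3, with 1 RNA preparation on each. All lines descend from fetal fibroblasts of p53-null mice and were grown for 48 h with 65 µM ZnCl2 and puromycin at 5 µg/ml. Ind-8 (the ASYM state) holds a p53 cDNA behind a modified human metallothionein promoter that zinc turns on. Con-3 (SYM) has no p53 cDNA. The line tI-3 (p53SYM) was derived from Ind-8, also expresses an IMPDH II cDNA constitutively, and grew in medium that held G418 as well. Each line is 1 clone, so a difference between lines may belong to the clone, the transgene, the drug or the self-renewal state, and these cannot be told apart here. Values are on the log2 scale, where a difference of 1 is a doubling, and the dimmest 25% of distinct value profiles had means under 4.29. With 3 arrays a line at most, and 2 for tI-3, the spread behind each standard error (SE) is measured between few preparations of 1 clone.

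Smooth muscle cells contract through filaments of smooth muscle actin and myosin, tuned by tropomyosins, calponin and transgelin. Many of these genes carry CArG boxes, the DNA element that serum response factor (SRF) binds, and SRF drives them together with the myocardin-related coactivators, of which MRTF-A is encoded by Mrtfa. Actin monomers hold MRTF-A in the cytoplasm, so that actin assembly switches these genes on in smooth muscle and in fibroblasts that turn into myofibroblasts.

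Genes that report on the transgenes were read first. Cdkn1a, a p53 target that arrests the cell cycle, had log2 values of 9.70, 9.70 and 9.59 on the Ind-8 arrays, 5.73, 5.81 and 6.03 on the Con-3 arrays and 7.55 and 7.33 on the tI-3 arrays. The lines did not overlap, with tI-3 between the others, and Cdkn1a was called in each comparison. Mdm2, the p53 target that degrades p53, also rose in Ind-8 against Con-3 by 2.00 (SE 0.130, limma adjusted p = 8.52e-06) and in tI-3 against Con-3 by 0.72 (SE 0.145, adjusted p = 0.00468). Trp53 itself was 0.53 higher in Ind-8 than in Con-3 (adjusted p = 0.0018) and 0.39 higher in tI-3 (adjusted p = 0.0141), where it was not called, at a difference of 0.38, with the hybridization-control level as a block. Impdh2, which encodes IMPDH II, measured 12.16, 12.19 and 12.22 in Ind-8, 12.51, 12.56 and 12.53 in Con-3 and 12.34 and 12.38 in tI-3, so it was not above Con-3 in the line with the extra cDNA. Whether its probes read the transgene was not tested.

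Some arrays stood apart in their control probe sets. The mean of 18 hybridization controls, RNAs added to each sample before hybridization, was 9.95, 9.88 and 9.89 on the Ind-8 arrays, 9.94, 10.00 and 10.44 on the Con-3 arrays and 10.24 and 10.46 on the tI-3 arrays. Con-3 replicate 3 and both tI-3 arrays were thus high, and the other 5 were low. Con-3 replicate 3 also had the highest 18S ribosomal RNA controls. Ind-8 and tI-3 share no control level, so their comparison rests on Con-3 wherever the level is accounted for.

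The alpha and gamma smooth muscle actins, products of Acta2 and Actg2, build the thin filaments. Actg2 had log2 values of 10.32, 9.63 and 10.19 in Ind-8, 9.85, 8.82 and 9.49 in Con-3 and 5.19 and 5.00 in tI-3. Every tI-3 array lay far below the other 6, while Ind-8 and Con-3 overlapped. Between line means the log2 difference was 4.95 (SE 0.273) for Ind-8 minus tI-3, a ratio of 30.9, and −4.29 (SE 0.273) for tI-3 minus Con-3, a ratio of 19.6, but 0.66 (SE 0.244) for Ind-8 minus Con-3. Among all 18172 distinct profiles, 4.95 was the highest difference of Ind-8 minus tI-3, a contrast known when the genes were chosen. Acta2 measured 14.05, 13.99 and 14.17 in Ind-8, 14.14, 13.98 and 14.15 in Con-3 and 13.20 and 13.21 in tI-3. It too was low in tI-3 only, by 0.86 (SE 0.101) against Ind-8 and with a difference of −0.89 (SE 0.101) for tI-3 minus Con-3, and Ind-8 minus Con-3 was −0.02 (SE 0.0904). With arrays quantile-normalized again the first 2 differences were 0.56 and −0.65. Its mean lay at percentile 99.9 of all profiles, near the top of the scale. In RNA of whole cultures, fewer cells that express a gene and less of its RNA per cell cannot be told apart.

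Transgelin (SM22) and calponin 1 bind actin filaments and are widely used markers of smooth muscle differentiation. Tagln had log2 values of 12.76, 12.48 and 12.87 in Ind-8, 12.68, 12.16 and 12.51 in Con-3 and 9.54 and 9.85 in tI-3. Cnn1 had 11.50, 11.37 and 11.86 in Ind-8, 11.54, 10.83 and 11.33 in Con-3 and 7.76 and 7.98 in tI-3. Both genes separated tI-3 from the other lines, and neither separated Ind-8 from Con-3. For Tagln, Ind-8 minus tI-3 was 3.01 (SE 0.171), tI-3 minus Con-3 was −2.75 (SE 0.171) and Ind-8 minus Con-3 was 0.25 (SE 0.153). The same differences of Cnn1 were 3.70 (SE 0.202), −3.37 (SE 0.202) and 0.34 (SE 0.181).

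Tropomyosins lie along the actin filament and gate its contact with myosin. Tpm1 measured 12.92, 12.90 and 13.01 in Ind-8, 13.19, 13.13 and 13.24 in Con-3 and 12.68 and 12.63 in tI-3. Here all 3 lines stood apart, with Con-3 highest, and the differences were small: −0.24 (SE 0.083) for Ind-8 minus Con-3, 0.28 (SE 0.0928) for Ind-8 minus tI-3 and −0.52 (SE 0.0928) for tI-3 minus Con-3. Tpm2 measured 11.997, 11.93 and 12.03 in Ind-8, 11.98, 11.74 and 11.77 in Con-3 and 11.11 and 11.08 in tI-3. Ind-8 and Con-3 overlapped and tI-3 was lower, with an Ind-8 minus tI-3 difference of 0.89 (SE 0.103) and a tI-3 minus Con-3 difference of −0.73 (SE 0.103).

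Myosin was represented by the heavy chain of smooth muscle, Myh11, and by a regulatory light chain, Myl9. Myl9 had log2 values of 12.81, 12.87 and 12.97 in Ind-8, 13.02, 12.57 and 12.76 in Con-3 and 11.58 and 11.54 in tI-3. The tI-3 arrays were again the lowest, by 1.32 (SE 0.129) against Ind-8, and tI-3 minus Con-3 was −1.22 (SE 0.129), while Ind-8 minus Con-3 was 0.10 (SE 0.115). Myh11 had 3.59, 3.52 and 3.55 in Ind-8, 3.39, 3.69 and 3.80 in Con-3 and 3.89 and 3.92 in tI-3. All of its values were under 4.29, so the heavy chain that defines mature smooth muscle was at the dim end in every line, and no ratio is given for it. It was the one gene of the 10 whose mean was highest in tI-3.

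SRF and its coactivator were read as well. Srf measured 8.69, 8.28 and 8.63 in Ind-8, 8.94, 8.86 and 8.71 in Con-3 and 8.08 and 8.004 in tI-3. It was highest in Con-3 and lowest in tI-3, with no overlap between lines, although the closest Ind-8 and Con-3 arrays, at 8.69 and 8.71, were nearly level. The differences were −0.30 (SE 0.119) for Ind-8 minus Con-3, 0.49 (SE 0.133) for Ind-8 minus tI-3 and −0.80 (SE 0.133) for tI-3 minus Con-3. Mrtfa measured 10.56, 9.91 and 10.26 in Ind-8, 9.34, 9.38 and 9.28 in Con-3 and 8.91 and 9.16 in tI-3. Its high line was Ind-8, above every other array, by 0.90 (SE 0.148) against Con-3 and by 1.21 (SE 0.165) against tI-3, while tI-3 minus Con-3 was −0.30 (SE 0.165). With the hybridization-control level as a block, Mrtfa was not called in Ind-8 against tI-3, at a difference of 1.12. Of the 10 genes, Mrtfa thus had the largest difference between Ind-8 and Con-3, and the contractile genes with the largest differences set tI-3 apart from both.

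**Figure D1:**
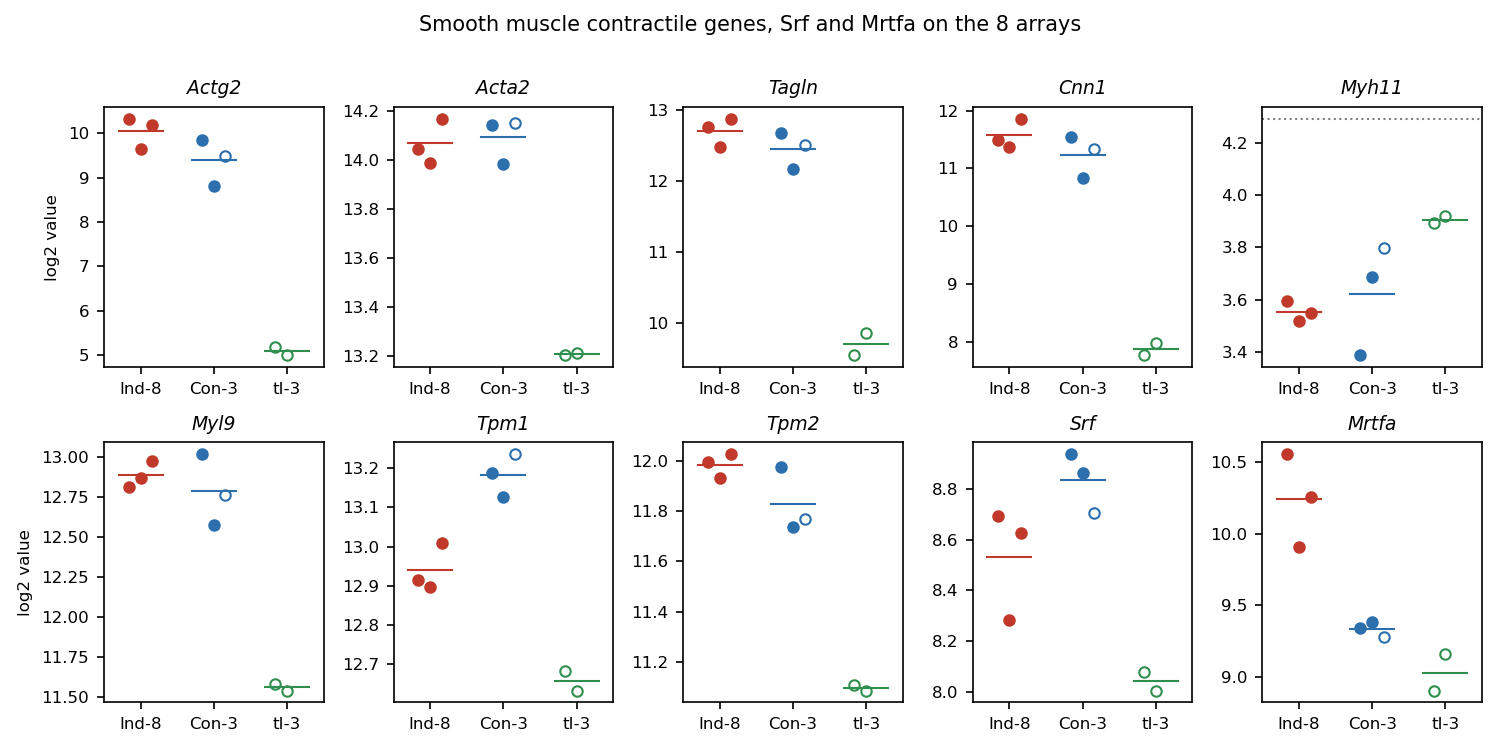
Log2 values of the 10 genes on each array, by line, with a bar at the mean of each line and a scale of its own in each panel; filled points are arrays with low hybridization controls, open points arrays with high ones, and the dotted line marks 4.29, the upper edge of the dimmest 25% of profiles. Actg2, Tagln and Cnn1 sit far lower in tI-3 (5.19 and 5.00 for Actg2) than in the other lines, Mrtfa is highest in Ind-8, and Myh11 stays under the dotted line.

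The arrays within a line also differed. Over the 9 genes above the dim end, Ind-8 replicate 2 was the lowest Ind-8 array for 8 and Con-3 replicate 2 the lowest Con-3 array for 7. Without Con-3 replicate 2 the Ind-8 minus Con-3 difference of Actg2 was 0.38, and without Con-3 replicate 1 it was 0.89, so its size depended on which Con-3 arrays entered. Without Con-3 replicate 2 the same difference was 0.14 for Cnn1 and 0.11 for Tagln, and without Ind-8 replicate 2 it was −0.18 for Srf. For tI-3 minus Con-3 the difference of Actg2 stayed between −4.58 and −4.06 whichever array was left out.

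The level of the hybridization controls moved with the lines, and the differences were taken within a level where that could be done. Among the arrays with high controls, 1 of Con-3 and both of tI-3, tI-3 minus Con-3 was −4.40 for Actg2, −3.46 for Cnn1, −2.81 for Tagln, −1.204 for Myl9, −0.945 for Acta2 and −0.67 for Srf. Each of these 6 was within 1 SE of its value over all arrays. Among the arrays with low controls, 3 of Ind-8 and 2 of Con-3, Ind-8 minus Con-3 was 0.88 for Mrtfa, 0.71 for Actg2 and −0.37 for Srf. With the level as a block in the fit, Ind-8 minus tI-3 was 5.11 for Actg2, and for Srf it was 0.30 in place of 0.49. The difference of Myh11 for tI-3 minus Con-3, 0.28 over all arrays, was 0.11 within the high level.

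Each comparison was also set against all profiles with a limma fit, in which a profile was called at an adjusted p under 0.05. In Ind-8 against Con-3, 1 of the 10 genes, Mrtfa, was called higher, where 10.8% of the 18172 profiles were, and 0 were called lower, where 10.2% were. At an unadjusted p under 0.05, 2 were higher and 2 lower, where 2826 and 3179 of the 18172 profiles were. The rank product test called 1 higher and 0 lower, against 396 and 276 profiles. In Ind-8 against tI-3, 9 were called higher, against 15.9% of all profiles (6 with the hybridization-control level as a block, without Tpm1, Srf and Mrtfa at differences of 0.36, 0.30 and 1.12, 7 with arrays quantile-normalized again, without Tpm1 and Srf, and 7 to 9 with single arrays left out), and Myh11 alone was called lower, against 14.8% (0 with the block, at a difference of −0.09, and 0 in 6 of the 8 fits with 1 array left out). In tI-3 against Con-3, 0 were called higher, against 10.3%, and 8 were called lower, against 15.6%, with Myh11 and Mrtfa not called. There an unadjusted p under 0.05 gave 1 higher and 8 lower, against 3157 and 3740 profiles. Rank product called 0 higher and 4 lower, against 116 and 296. Because the genes were chosen with these contrasts known, nothing is read from these counts, and the comparisons share arrays, so they do not repeat one another. With the hybridization-control level as a block, calls over all profiles in Ind-8 against tI-3 dropped from 2893 to 416 higher and from 2691 to 167 lower. Arrays centred on their median turned the 1970 higher and 1857 lower calls of Ind-8 against Con-3 into 1715 and 2442. The same centring turned the 2893 and 2691 of Ind-8 against tI-3 into 2615 and 3510.

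**Figure D2:**
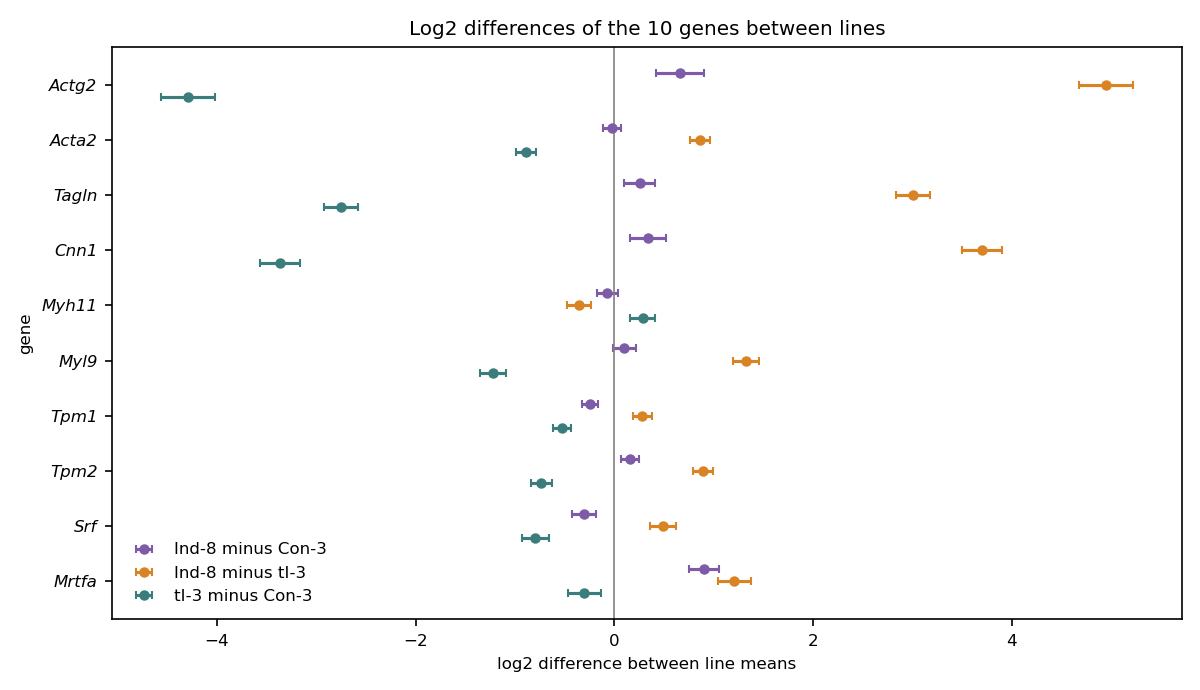
Log2 difference between line means (horizontal axis) for each of the 10 genes, with bars of 1 standard error from the limma fit, in 3 colours for the 3 comparisons. Actg2, Cnn1 and Tagln reach 4.95, 3.70 and 3.01 for Ind-8 minus tI-3, whereas all differences of Ind-8 minus Con-3 lie between −0.30 and 0.90.

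Promoter sequence was not used to choose the genes. The set was named for a class in which many genes carry CArG boxes, so the counts below are a description and no test. RefSeq promoter windows, from 250 bases before to 50 bases after the gene start in mouse build GRCm38.p6, were at hand for Acta2, Cnn1, Myl9, Tpm1, Tpm2, Srf and Mrtfa, the last with 2 windows, and Actg2, Tagln and Myh11 are named only. They were searched for the CArG box, CC and GG around a core of 6 bases, each A or T, a pattern that reads the same on both strands. A strict box lay in the windows of 2 of the 7 genes, Myl9 and Srf. By window these were 2 of 8, and 1.63% of all 32851 windows held one. With 1 other base allowed in the core, Acta2 and Mrtfa were added, which made 4 of 7 genes. By window these were 4 of 8, against 9.98% of all windows. The windows of Cnn1, Tpm1 and Tpm2 held neither form, which says only that these letters are not in these stretches. The last 170 bases before the start are shown for the actin, the light chain and SRF itself, which carry 2 boxes each, strict or with 1 other base, in capitals. They lie at chr19:34255374-34255543 on the minus strand (Acta2), chr2:156775294-156775463 on the plus strand (Myl9) and chr17:46556163-46556332 on the minus strand (Srf), and are written 5′ to 3′ along the gene.
Acta2: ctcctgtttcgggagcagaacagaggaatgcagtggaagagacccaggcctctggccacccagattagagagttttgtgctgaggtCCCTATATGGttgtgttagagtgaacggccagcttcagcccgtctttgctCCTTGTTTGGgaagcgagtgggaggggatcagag
Myl9: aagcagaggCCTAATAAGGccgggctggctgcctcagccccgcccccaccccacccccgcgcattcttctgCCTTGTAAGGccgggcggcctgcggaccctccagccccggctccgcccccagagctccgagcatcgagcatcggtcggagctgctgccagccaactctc
Srf: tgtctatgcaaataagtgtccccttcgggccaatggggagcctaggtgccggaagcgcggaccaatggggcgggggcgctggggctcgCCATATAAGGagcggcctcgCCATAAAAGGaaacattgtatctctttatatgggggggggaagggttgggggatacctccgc
The Acta2 boxes begin 84 and 34 bases before the start and each has 1 other base in the core. In Myl9 the strict box begins 161 bases before the start and the other one 99. Both Srf boxes are strict and begin 82 and 62 bases before the start. Acta2, Myl9 and Srf were all lowest in tI-3, as was Mrtfa, and so were Cnn1, Tpm1 and Tpm2, whose windows held no box.

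**Figure D3:**
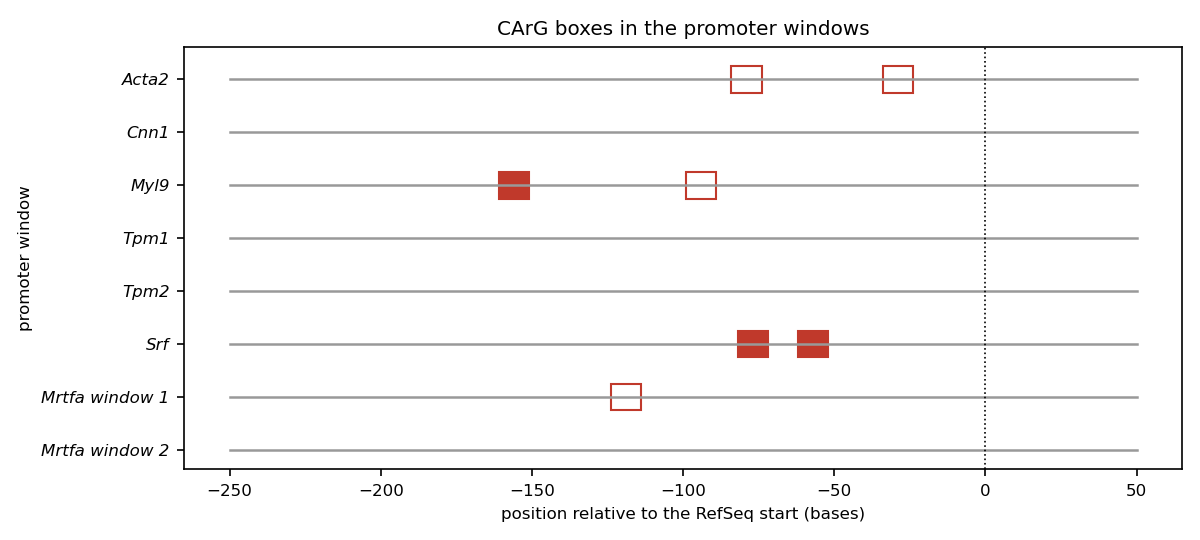
Position of CArG boxes (boxes, 10 bases wide) in the RefSeq promoter windows of 7 of the genes, in bases from the gene start; filled boxes are strict and open boxes have 1 other base in the core. Srf and Myl9 hold strict boxes, Acta2 and one window of Mrtfa hold open boxes only.

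Other genes of the pathway come from lists, counted by distinct profile, since a few genes have more than 1. The lists too were chosen with earlier results of these arrays known. Of all profiles, 10.8% were called higher and 10.2% lower in Ind-8 against Con-3, 15.9% and 14.8% in Ind-8 against tI-3, and 10.3% and 15.6% in tI-3 against Con-3. These shares of the main fit stand beside every list count from it, and whether a list exceeds them was not tested. The hybridization-control level as a block called 1435 profiles higher and 1343 lower in the first comparison. It called 416 and 167 in the second, and 883 and 1603 in the third. In the same order, an unadjusted p under 0.05 gave 2826 and 3179, 3771 and 4151, and 3157 and 3740. The rank product test gave 396 and 276, 293 and 82, and 116 and 296. List counts under these settings stand beside these numbers of 18172. Other parts of the smooth muscle apparatus were read from 17 profiles of 15 genes, 11 of them above the dim end. In Ind-8 against tI-3, 5 rose and 1 fell, and the median difference was 0.07 against −0.06 over all profiles. The medians of Ind-8 minus Con-3 and tI-3 minus Con-3 were −0.02 and −0.01, against −0.06 and 0.03. Lmod1, a leiomodin that nucleates actin filaments in smooth muscle, had log2 values of 7.47, 6.98 and 7.58 in Ind-8, 6.68, 6.43 and 6.77 in Con-3 and 6.39 and 5.42 in tI-3, and rose by 1.44 (SE 0.257, adjusted p = 0.00292). Synm, a smooth muscle intermediate filament protein, rose by 1.41 (SE 0.239, adjusted p = 0.00218), and the actin-binding proteins Pdlim7 and Smtn rose by 0.99 and 0.56. Pdlim7 has another profile, which was not called in any comparison and differed by 0.30 here. Lmod1, Synm and Smtn were also called higher in Ind-8 than in Con-3, though Lmod1 and Synm not with the control level as a block, at differences of 0.79 and 0.68 in place of 0.72 and 0.74. That block left 1 call of a rise in Ind-8 against tI-3 in place of 5, with Lmod1, Synm and Smtn not called at differences of 1.66, 1.24 and 0.55. In Ind-8 against Con-3, 5 profiles rose over all arrays and 1, the myosin phosphatase subunit Ppp1r12a, fell by 0.55 (adjusted p = 0.0178). In tI-3 against Con-3, 2 fell, with differences of −0.61 for Ppp1r12a, not called at the same −0.61 with the control level as a block, and −0.60 for Pdlim7, and 0 rose (2 at an unadjusted p under 0.05, 0 by rank product). In place of the 5 calls of a rise in Ind-8 against Con-3, there was 1 within the low control level and 3 with arrays centred or quantile-normalized again. Des, Synpo2, Itga8, Kcnmb1 and Ppp1r14a, other genes of mature smooth muscle, had values of 6.33 or less on every array. Of these, Des lay above the dim end, at 5.83 to 6.33. Other members of the list were far higher on every array, such as Cald1 (11.03 to 11.67), Csrp1 (10.50 to 11.29) and Smtn (9.42 to 10.23).

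Paralogs of the 10 genes that serve in non-muscle cells or striated muscle gave 13 profiles. Cnn2, a calponin of non-muscle cells, measured 13.13, 13.20 and 13.22 in Ind-8, 13.25, 13.07 and 13.00 in Con-3 and 11.98 and 12.18 in tI-3. It followed the order of Cnn1 with a smaller step, and fell by 1.03 in tI-3 against Con-3 (SE 0.11, adjusted p = 0.000155) and rose in Ind-8 against tI-3 by 1.10 (adjusted p = 0.000129). Myh9, a non-muscle myosin heavy chain, was likewise lower in tI-3, by 1.10 against Ind-8 (adjusted p = 0.00196) and with a difference of −0.73 for tI-3 minus Con-3 (adjusted p = 0.0139). Other non-muscle heavy chains went the other way: Myh10, named after its values were seen, rose in tI-3 against Con-3 by 0.35 (adjusted p = 0.0255), and Myh14 fell by 0.45 in Ind-8 against tI-3 (adjusted p = 0.0373). With the control level as a block Myh9, Myh10 and Myh14 were not called in these comparisons, and the differences were 1.205 and −0.80 for Myh9 and −0.21 for Myh14. Among the arrays with high controls, Myh10 measured 11.36 and 11.54 in tI-3 and 11.15 on Con-3 replicate 3. Of the 13, 2 rose and 1 fell in Ind-8 against tI-3, 2 rose and 3 fell in tI-3 against Con-3, and 1 rose and 1 fell in Ind-8 against Con-3. The block left 1 rise and 0 falls in the first, 0 and 2 in the second, and 0 and 0 in the third. Not called with it were Cnn3 and Tagln3 in Ind-8 against Con-3, at differences of 0.28 and −0.33 in place of 0.29 and −0.43. Tpm4 and Myl12b were not called with it in tI-3 against Con-3, at −0.47 and 0.43 in place of −0.54 and 0.43. The medians of the 13, in the same order of comparisons, were 0.184, −0.182 and −0.005, against −0.06, 0.03 and −0.06 over all profiles. Quantile normalization of the arrays made the first 2 medians 0.062 and −0.07, against −0.024 and 0.011. With the block the median of tI-3 minus Con-3 was −0.088 against −0.021. Actb, the cytoplasmic beta actin, was not called in any comparison, with values from 13.97 to 14.34, and the striated muscle actins Acta1 and Actc1 were not called either.

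Other targets of SRF and MRTF gave 14 profiles, and their calls went one way in each comparison. In Ind-8 against tI-3, 8 rose and 0 fell (0 also at an unadjusted p under 0.05 and by rank product, which called 1 higher), and the median was 0.395 against −0.06 over all profiles. In tI-3 against Con-3, 5 fell and 0 rose, again with 0 higher at an unadjusted p under 0.05 and by rank product, which called 2 lower, and the median was −0.18 against 0.03. Quantile normalization of the arrays made that median −0.066 against 0.011. In Ind-8 against Con-3, 2 rose, Lima1 by 0.45 and Ankrd1 by 0.41, the latter not called with the control level as a block, at 0.39, and 0 fell, at an unadjusted p and by rank product too, with a median of 0.13 against −0.06. Ccn2, a secreted matrix protein, measured 13.65, 13.46 and 13.58 in Ind-8, 13.80, 13.17 and 13.43 in Con-3 and 12.36 and 12.37 in tI-3. Only tI-3 stood apart, and the gene fell by 1.10 in tI-3 against Con-3 (SE 0.157, adjusted p = 0.000705) and rose in Ind-8 against tI-3 by 1.199 (SE 0.157, adjusted p = 0.000537). The LIM protein Fhl1 fell by 1.08 in tI-3 against Con-3 (adjusted p = 8.33e-05), the focal adhesion protein zyxin, product of Zyx, fell by 1.05 (adjusted p = 0.00059), and Mical2, which oxidizes actin, fell by 1.56 (adjusted p = 0.00174). Vcl and Tln1 of focal adhesions, named after their values were seen, were also among the 8 that rose in Ind-8 against tI-3, by 0.39 and 0.44. With the control level as a block 4 were called lower in tI-3 against Con-3 in place of 5, and 1 was called higher in Ind-8 against tI-3 in place of 8. In that comparison the block left differences of 1.14 for Ccn2, 1.01 for Zyx and 1.05 for Fhl1, and a median of 0.317. For Mical2 the difference was 0.70 in place of 1.06. With arrays quantile-normalized again 5 were called higher there.

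SRF also works with ternary complex factors on immediate early genes, which are known to answer growth signals within minutes. Of their 7 profiles, 3 rose in Ind-8 against Con-3 (Egr2 by 1.47, Fos by 1.10 and Junb by 0.74) and 3 in Ind-8 against tI-3 (Fos by 1.75, Egr2 by 1.48 and Ier2 by 0.38), and 0 fell in either. The medians were 0.63 and 0.38, against −0.06 over all profiles in both. At an unadjusted p under 0.05 and by rank product 0 fell as well. Fos had log2 values of 8.28, 9.47 and 9.28 in Ind-8, 7.71, 7.81 and 8.19 in Con-3 and 7.82 and 6.70 in tI-3. The Ind-8 arrays were the highest but spread over more than 1 unit, as did those of tI-3. In tI-3 against Con-3, 0 of the 7 were called in either direction (1 higher and 0 lower at an unadjusted p under 0.05, 0 by rank product), and the median was 0.04 against 0.03. With the hybridization-control level as a block 2 were called higher in Ind-8 against Con-3 and 0 in Ind-8 against tI-3, where Egr2 differed by 0.98 in place of 1.48, Fos by 2.18 in place of 1.75 and Ier2 by 0.39 in place of 0.38.

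**Figure D4:**
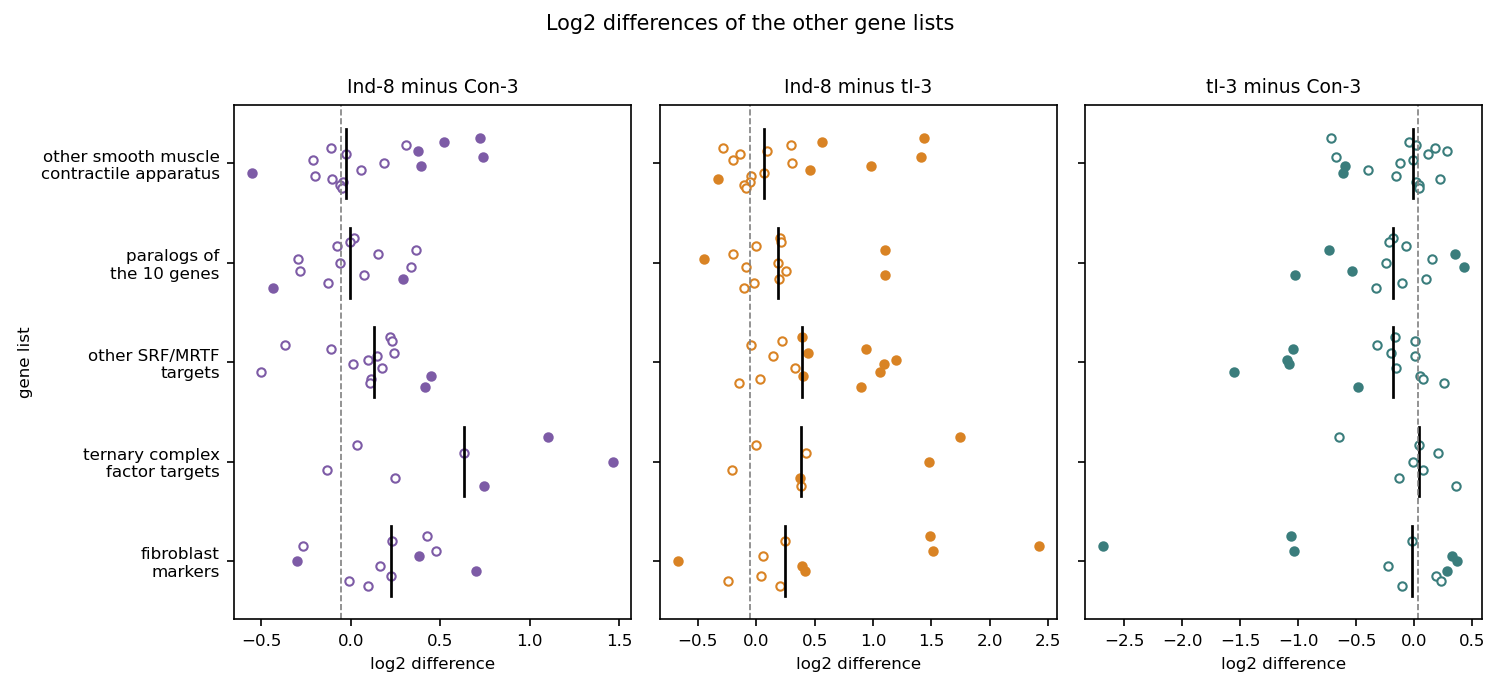
Log2 differences of 5 other gene lists (rows) in the 3 comparisons (panels), 1 point per distinct profile, filled where limma called it at an adjusted p under 0.05; black bars are list medians and dashed lines the median of all 18172 profiles. The filled points of the other SRF/MRTF targets lie to the right for Ind-8 minus tI-3 (8 of 14) and to the left for tI-3 minus Con-3 (5 of 14).

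The naming rule covered 63 gene and comparison pairs of these lists, the marker lists and the genes that check the transgenes. Each kept its direction with the hybridization-control level as a block. With that block 12 of 20 stayed called in Ind-8 against Con-3, 7 of 24 in Ind-8 against tI-3 and 11 of 19 in tI-3 against Con-3. Of the pairs that check the transgenes, only Trp53 in tI-3 against Con-3 lost its call, and without those pairs the shares are lower. Within the low level 10 of 20 stayed called in Ind-8 against Con-3. The high level has 1 Con-3 array, so its calls are not counted here. The block also takes tI-3 minus Con-3 from that array, Con-3 replicate 3, which had the highest 18S controls. Ind-8 minus tI-3 with the block rests on it too. A lost call need not mean a smaller difference: Lmod1 lost its call in Ind-8 against tI-3 at 1.66 in place of 1.44. The 7 that stayed called in Ind-8 against tI-3 were Cnn2, Fhl1, Pdlim7, Pdgfra, Col1a1, Cdkn1a and Mdm2.

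**Figure D5:**
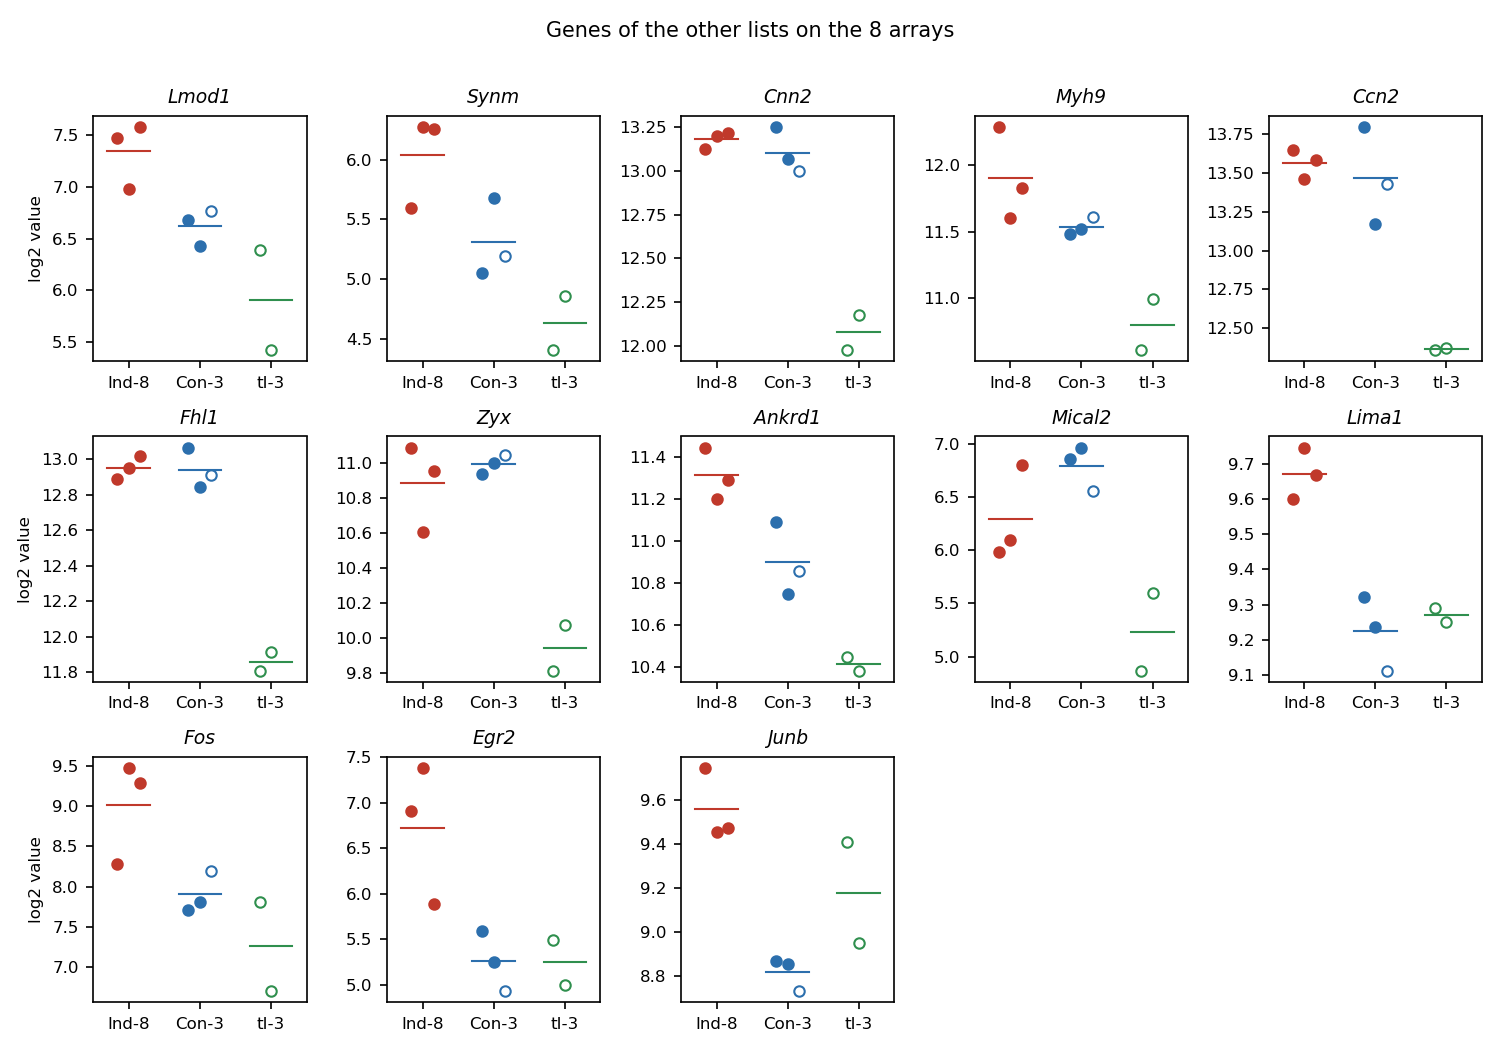
Log2 values on each array, by line, of 13 genes from the lists of the contractile apparatus, paralogs and SRF targets, drawn as in the plot of the 10 genes by array. Cnn2, Ccn2, Fhl1 and Zyx are lowest in tI-3, and Fos, Egr2 and Lima1 are highest in Ind-8.

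The cells are labelled fibroblasts, and markers of several cell types were read beside the contractile genes. Of 11 fibroblast markers, 9 lay above the dim end, with values of Vim from 13.56 to 14.08, and Thy1 and Lum lay at the dim end. The log2 of their summed level was 15.65, 15.76 and 15.74 on the Ind-8 arrays, 15.35, 15.45 and 15.46 on the Con-3 arrays and 15.45 and 15.29 on the tI-3 arrays. The Ind-8 arrays were the highest, and those of Con-3 and tI-3 overlapped. Some of them moved with the contractile genes: in tI-3 against Con-3, Col3a1 fell by 2.68 (SE 0.366, adjusted p = 0.000574), Col1a1 fell by 1.06 (adjusted p = 0.00448) and Pdgfra fell by 1.04 (adjusted p = 0.00284). Thy1, Pdgfrb and Fn1 rose there, so that 3 fell and 3 rose, with a median of −0.015 against 0.03 over all profiles. With the control level as a block 0 rose and the median was −0.255, and without Con-3 replicate 3 it was 0.141, so the sign of the median depended on the arrays. In Ind-8 against tI-3, 5 rose and 1 fell, and in Ind-8 against Con-3, 2 rose and 1 fell, with medians of 0.25 and 0.23 against −0.06 in both. The block took the calls of Col3a1 and Thy1 in Ind-8 against tI-3, at differences of 2.69 and −0.48. It also took that of Thy1 in Ind-8 against Con-3, at −0.24. The median of Ind-8 minus tI-3 was 0.43 with the block and 0.152 with arrays quantile-normalized again. Their part in the differences of the contractile genes was not tested.

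Above the dim end lay 5 of 8 profiles of skeletal muscle markers, 4 of 8 of cardiac, 3 of 5 of pericyte and 1 of 5 of endothelial markers. The 8 skeletal muscle markers, Myod1, Myog and Myf5 among them, summed to between 7.40 and 7.79 on every array, with Tnni2 the most abundant at 5.50 to 6.003. In Ind-8 against tI-3, Ckm fell by 0.44 and Tnnt3 fell by 0.48, and Ckm rose in tI-3 against Con-3 by 0.37, and 0 of these 3 calls stayed with the control level as a block, at differences of −0.32, −0.61 and 0.29. The 8 profiles of cardiac markers summed to between 7.46 and 8.15, with Tnnt2 highest on replicate 1 of Ind-8 (6.42) and of Con-3 (6.41), and 0 were called in any comparison (1 lower in Ind-8 against tI-3 at an unadjusted p under 0.05, 0 by rank product). The 5 pericyte markers summed to between 8.41 and 8.94, with Cspg4 the most abundant, and Notch3 rose in Ind-8 against Con-3 by 0.70 (adjusted p = 0.00057) and against tI-3 by 0.55, the latter not called with the control level as a block, at a difference of 0.63. Rgs5, another of the pericyte markers, lay between 3.62 and 3.99. The 5 endothelial markers summed to between 6.79 and 7.44, with Kdr the most abundant. It rose in tI-3 against Con-3 by 0.44, and fell by 0.76 in Ind-8 against tI-3 and fell by 0.32 in Ind-8 against Con-3, and 0 of these 3 calls stayed with the control level as a block, at differences of 0.36, −0.63 and −0.28. Of the others, Pecam1 and Cdh5 lay between 3.83 and 4.40. On no array of tI-3 was the sum of any of these 4 lists below every array of the other lines. Both tI-3 arrays had the highest sums of skeletal muscle markers (7.79 and 7.74) and of endothelial markers (7.29 and 7.44). Their sums of cardiac and pericyte markers lay within the range of the other arrays. The sum over the 10 genes was 15.58, 15.48 and 15.69 in Ind-8, 15.65, 15.38 and 15.56 in Con-3 and 14.49 on both tI-3 arrays.

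Outside the 10 genes, those whose pattern was most like that of Actg2 over the 8 arrays were found by Pearson's r among 2376 profiles that varied by at least 1 log2 unit. They were Adam19 (r = 0.992), Tmem198b (0.991), Pkp2 (0.987), Inhbb (0.987) and Lrrc75b (0.984). For Acta2, again with the 10 genes left out, they were Col2a1 (r = 0.993), Fhl1 (0.990), Nuak1 (0.989), Inhbb (0.989) and Fbln2 (0.986). All 9 genes had a lower mean in tI-3 than in both other lines, as for Inhbb with 8.42 in Ind-8, 8.28 in Con-3 and 6.45 in tI-3. The largest step was that of Col2a1, the collagen of cartilage, with means of 11.58, 11.91 and 6.86. The arrays form 3 groups, so such an r mostly reads the line means, and it is a description that says nothing of shared function or control.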

How the data were processed

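The authors processed the scanner files of the 8 arrays by RMA in R, with the probes regrouped by RefSeq transcript in a custom definition, and deposited log2 values. These were used without further normalization, and depth does not apply to arrays. Of 22587 probe sets, 64 Affymetrix controls were left out of the tests, which left 22523, with 18172 distinct value profiles at 6 decimals. RefSeq accessions gave 81.2% of the 22523 a symbol through a gene table of assembly GRCm38.p6, used for names and promoter windows. Lines came from the sample labels.

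The main test was limma 3.58.1 in R 4.3.3 on all 8 arrays with a mean per line, with Benjamini-Hochberg adjustment over the distinct profiles, and a profile was called at an adjusted p under 0.05. The rank product test that the study's methods name was re-implemented, with 100 permutations, as an alternative, because it gives no standard error. Both were tested on simulated data, whose outcome is not given here and is not used. Preparations of 1 clone are the replicates, so p-values measure the spread between preparations only. Tables and figures were made in Python 3.11.15 with numpy 2.4.6, pandas 2.3.3 and matplotlib 3.10.9.

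The named genes are the 10 genes of the set, up to 4 called profiles per other list and comparison with the largest difference, the genes that check the transgenes, and, outside the 10 genes, the 5 most correlated with Actg2 and the 5 with Acta2. Some members of the lists outside this rule are named too, Myh10, Vcl and Tln1 among them. The text and tables leave out 1 planned list, for a reason unrelated to its values. The 10 genes and the lists were chosen with earlier results of these data known. Alternatives changed the test, the minimum change, the pairing, the arrays in the fit, the prior, the scaling, the filter on dim profiles, identical rows, control probe sets, the level of the hybridization controls, each array in turn, and the form and window of the CArG box. Protein identity between members was not computed here. The counts of the other lists under the control level, the scaling and without Con-3 replicate 3 were added after seeing the data.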

Additional observations from a re-analysis of the deposited data

Results flagged for a closer look

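The control probe sets were set aside from all comparisons, and those for 18S ribosomal RNA showed a signal on 1 array. Con-3 replicate 3 measured 11.38 at the probe set for the 3′ end of 18S, 9.53 at that for the middle and 10.97 at that for the 5′ end. The highest values on the other 7 arrays were 7.67, 6.45 and 5.25. The same array is the one Con-3 array with high hybridization controls. Of the 10 genes, its values for Actg2 (9.49), Tagln (12.51), Cnn1 (11.33), Myl9 (12.76) and Tpm2 (11.77) lay within the range of the other Con-3 arrays, those for Acta2 (14.15), Tpm1 (13.24) and Myh11 (3.80) above it and those for Srf (8.71) and Mrtfa (9.28) below it. Without it tI-3 minus Con-3 was −4.24 for Actg2. Whether the 18S signal bears on other values of this array was not tested.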

How the results depend on the processing

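Counts of called profiles depended on the test. In Ind-8 against Con-3 the rank product test called 396 higher and 276 lower, and a minimum log2 difference of 1 left 294 and 85. In Ind-8 against tI-3 these were 293 and 82, and 433 and 107. In tI-3 against Con-3 they were 116 and 296, and 205 and 377. Of the 10 genes, the rank product test and the minimum difference each called 5 higher and 0 lower in Ind-8 against tI-3 and 4 lower in tI-3 against Con-3 (Actg2, Tagln, Cnn1 and Myl9, and in the first also Mrtfa), and the minimum difference left 0 called higher in Ind-8 against Con-3. Within a hybridization-control level, with fewer arrays, 1249 profiles were higher and 1174 lower in Ind-8 against Con-3, and 751 and 1234 in tI-3 against Con-3, where Con-3 is 1 array and the spread comes from the 2 of tI-3. With the level as a block, the counts were 883 and 1603 in tI-3 against Con-3 and 416 and 167 in Ind-8 against tI-3, where 0 of the 10 genes were then called lower. That call, of Myh11 at the dim end, also went to 0 with quantile normalization, with dim profiles filtered out and with control probe sets kept. Tpm1 was called lower in Ind-8 than in Con-3, as 1 of 10, with an intensity trend in the prior and with arrays centred on their median. The cause was not tested.

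The replicate block, with the number in the labels as a term, called 2 of the 10 genes higher in Ind-8 than in Con-3, Actg2 and Mrtfa, and 2194 and 2027 profiles. The deviations of same-numbered Ind-8 and Con-3 arrays correlated at 0.256, 0.024 and 0.367, so the numbers were not taken to pair the samples.

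With each array left out in turn, 1 to 2 of the 10 genes were called higher in Ind-8 than in Con-3, with Actg2 added without Ind-8 replicate 2 or Con-3 replicate 1, and 0 to 1 lower in Ind-8 than in tI-3. Profiles called in Ind-8 against tI-3 ran from 1458 to 2988 higher and 887 to 2828 lower, and in tI-3 against Con-3 from 928 to 1822 and 1595 to 2820, each lowest without tI-3 replicate 2. That leaves 1 tI-3 array, which is assumed to vary like those of the other lines. Of the called log2 differences of the 10 genes, 0 changed sign under the alternatives run on them. Over all 10 genes, called or not, 9 values of Ind-8 minus tI-3 and 5 of tI-3 minus Con-3 moved by 1 SD or more. The 5 include those of Myh11, which was not called in tI-3 against Con-3. Some alternatives cannot move a difference, such as leaving out an array of the third line. Allowing 1 other base in the CArG core raised the genes with a box from 2 to 4, and the window before the start alone left it at 2. Counts of the other lists with the control level, the scaling or Con-3 replicate 3 changed were chosen after seeing the data. Values near the dim end, such as those of Myh11, limit what can be read from their differences.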
